A study of Danio rerio with 4 samples.

Results

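Pocket proteins and E2F factors are the transcriptional switch of the G1/S transition. The pocket proteins Rb (rb1), p107 (rbl1) and p130 (rbl2) bind E2F transcription factors and hold their target genes silent until cyclin-dependent kinases phosphorylate the pocket proteins and release them. E2F1 and E2F3 are known mainly as activators, E2F4 and E2F5 as repressors that need a pocket protein, E2F6 as a repressor that works with Polycomb proteins and without a pocket protein, and E2F7 and E2F8 as atypical repressors that bind DNA without a DP partner. In mammalian cells p107 is typical of cycling cells, and p130 is typical of resting cells, where it forms the repressive DREAM complex with E2F4, a DP protein and the MuvB core.

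The 10 genes described were taken by name as the rows of the deposited table whose gene symbol was rb1, rbl1, rbl2, e2f1, e2f3, e2f4, e2f5, e2f6, e2f7 or e2f8. Each symbol matched 1 of the 32057 Ensembl identifiers, and all 10 were among the 16172 genes tested. The libraries were poly-A selected RNA from whole zebrafish embryos of 2 genotypes, with 2 libraries each. Quadruple mutants were mdm2-/-; puma-/-; noxa-/-; p21-/-, and their sibling controls were mdm2+/- or mdm2+/+ with the same puma-/-, noxa-/- and p21-/- alleles, so that both genotypes carried the puma, noxa and p21 mutations. Mdm2 keeps p53 low by marking it for degradation, puma (bbc3) and noxa (pmaip1) are pro-apoptotic p53 targets, and p21 (cdkn1a) is the p53-induced inhibitor of the kinases that phosphorylate pocket proteins. In the titles the mutants are also described as abnormal and the controls as normal, and the 2 distinctions cannot be told apart. Titles place collection at 18 hours post-fertilization and the tissue label at 30. The comparison asks how the Rb/E2F switch genes differ after loss of mdm2 in embryos without p21.

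Levels are given as TPM, the abundance of transcripts corrected for transcript length and scaled so that every library has an equal total, so levels may be compared between genes, and sequencing depth is unknown. Each change is the mutant mean minus the control mean of log2(TPM + 1), a scale on which changes of low genes come out too small, and an adjusted p is from limma with Benjamini-Hochberg adjustment over all 16172 tested genes. Of these genes, 65.6% passed an adjusted p of 0.05, 28.0% as higher and 37.7% as lower in the mutants, and the median change of all tested genes was -0.10. Median ratio scaling moved that median to 0.02 and gave 5450 genes higher and 5173 lower, in place of 4522 and 6091. The libraries held 15242 to 15584 genes at 1 TPM or more. Transcripts of the mutated genes were all higher in the quadruple mutants (log2 changes of 4.35 for mdm2, 3.70 for bbc3, 2.91 for pmaip1 and 2.54 for cdkn1a); TPM per gene counts mutant and intact alleles alike and does not check the labels. The labels do not state whether the 2 libraries of a genotype are separate clutches, and the p-values hold only for the spread between these libraries, which may be technical.

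Of the 3 pocket protein genes, rbl2 and rb1 were higher in the quadruple mutants and rbl1 was lower. Of the 7 E2F genes, 5 were lower (e2f1, e2f3, e2f4, e2f6 and e2f8), 0 were higher, and e2f5 and e2f7 did not pass. In all, 8 of the 10 genes passed, against 65.6% of tested genes, so the count of calls alone is near the background. The libraries of the 2 genotypes did not overlap for any of the 10 genes, as for 83.3% of tested genes. Of the 10, 3 lay above the controls (35.8% of tested genes) and 7 below (47.5%). The size and direction of each gene's change are therefore given gene by gene.

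The gene rbl2 (ENSDARG00000045636), which encodes p130, was at 1.15 and 1.64 TPM in the controls and reached 40.62 and 41.82 TPM in the mutants. Both mutants were far above both controls, and the controls were close to the 1 TPM used as the filter on low values. Mean levels were 41.2 ± 0.849 TPM against 1.4 ± 0.346 TPM (SD, n = 2 per genotype), a 29.5-fold ratio of mean TPM and a log2 change of 4.15 (SE 0.126, 95% interval 3.84 to 4.46, limma adjusted p = 6.57e-06). This was the 56th largest rise among the 16172 tested genes. Because the control level is low, the size of the change depends on the pseudocount, and was 2.85 with 5 TPM added and 4.81 with 0.1 TPM added.

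The gene rb1 (ENSDARG00000006782), which encodes the retinoblastoma protein, stood at 53.01 and 53.25 TPM in the mutants and 26.66 and 25.19 TPM in the controls. The mutant libraries nearly coincided and lay at 2.05 times the mean control TPM. The log2 change was 1.01 (SE 0.068, 95% interval 0.84 to 1.17, limma adjusted p = 8.4e-05). The gene rbl1 (ENSDARG00000008141), which encodes p107 and is itself an E2F target gene in mammals, went the other way, with 19.22 and 19.41 TPM in the controls and only 5.12 and 5.76 TPM in the mutants. Its mean TPM was 3.55-fold lower in the mutants, a log2 change of -1.66 (SE 0.097, 95% interval -1.90 to -1.42, limma adjusted p = 5.29e-05).

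**Figure D1:**
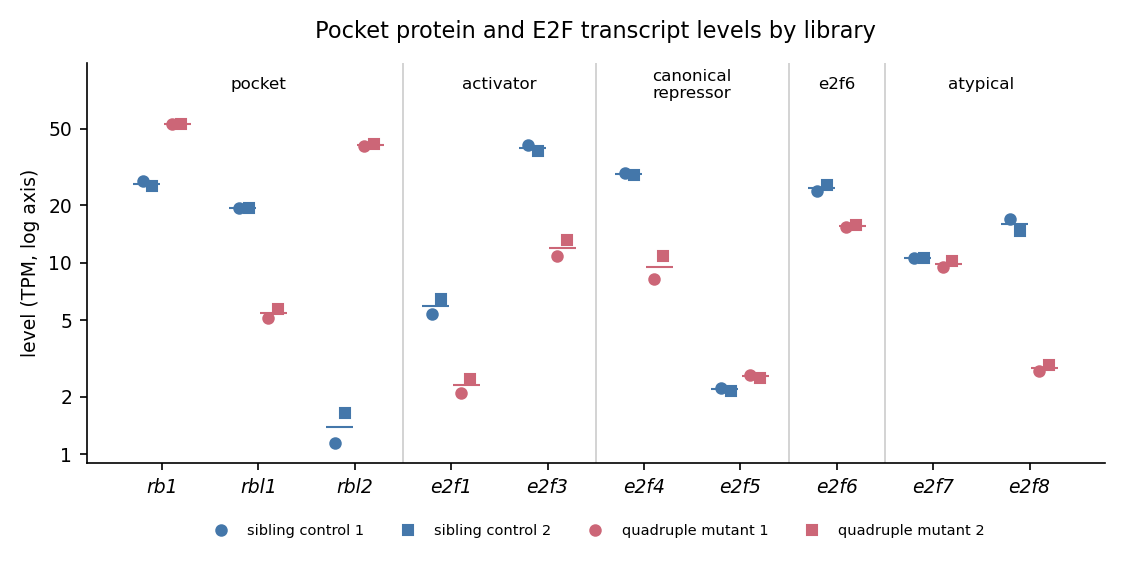
Level of each gene in TPM on a log axis in each of the 4 libraries (blue, sibling controls; red, quadruple mutants; circles, replicate 1; squares, replicate 2), with a bar at the mean of each genotype and genes ordered by role. The rbl2 points rise from 1.15 and 1.64 TPM to above 40 TPM, rbl1, e2f1, e2f3, e2f4 and e2f8 points fall, and those of e2f5 and e2f7 lie close together.

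The pocket protein transcripts thus changed in make-up as well as in amount. As a share of the summed TPM of the 3 genes, rbl2 made up 41.1% and 41.5% in the mutants and 2.45% and 3.55% in the controls. The share of rbl1 was 5.18% and 5.71% in the mutants and 40.9% and 42.0% in the controls, so these 2 genes exchanged places. The share of rb1 was 53.2% ± 0.615 in the mutants and 55.6% ± 1.56 in the controls (SD, n = 2 per genotype). The rise of rb1 therefore kept pace with the total, which went from 46.6 ± 0.559 TPM to 99.8 ± 1.47 TPM. The difference in the rbl2 share was 38.3 percentage points (2-sided exact permutation test over libraries, p = 0.333, the smallest p that 2 against 2 libraries allow). Such a share does not depend on a scaling factor per library.

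Within each library, log2(TPM + 1) of rbl2 exceeded that of rbl1 by 2.77 and 2.66 in the mutants, whereas it was lower by 3.23 and 2.95 in the controls (differences of -3.23 and -2.95). The change of this difference between genotypes was 5.81 (SE 0.150; 2-sided exact permutation p = 0.333, the smallest possible). Against rb1, rbl2 stood at -0.38 and -0.34 in the mutants and at -3.69 and -3.31 in the controls, a change of 3.14 (SE 0.188; exact permutation p = 0.333, again the smallest possible). The sign of rbl2 against rbl1 therefore switched between genotypes, whereas rb1 stayed the more abundant of the pair rb1 and rbl2 in all 4 libraries. The size of both changes depends on the pseudocount. With 5 and 0.1 TPM added, the change was 4.07 and 6.62 against rbl1, and 1.94 and 3.78 against rb1.

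**Figure D2:**
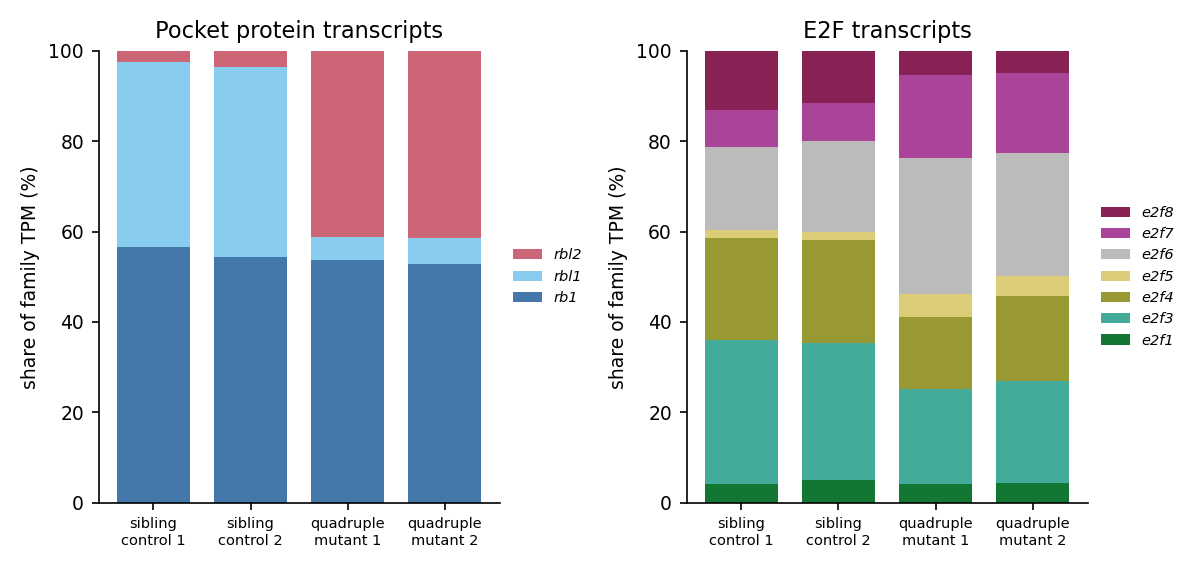
Share of each gene in the summed TPM of the pocket protein genes (left) and of the 7 E2F genes (right), in percent, with 1 bar per library. The rbl2 segment fills 41.1% and 41.5% of the pocket protein bar in the mutants in place of the rbl1 segment of the controls, and the e2f6 and e2f7 segments of the E2F bars are wider in the mutants while those of e2f3 and e2f8 are narrower.

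Among the activators, e2f3 (ENSDARG00000070463) was the most abundant of the 10 genes in the controls, at 40.96 and 38.19 TPM, and stood at 10.81 and 13.14 TPM in the mutants. Its mean TPM was 3.30-fold lower in the mutants (log2 change -1.65, SE 0.108, limma adjusted p = 7.75e-05). The gene e2f1 (ENSDARG00000103868) went from 5.38 and 6.46 TPM to 2.10 and 2.48 TPM, 2.59-fold lower in mean TPM (log2 change -1.07, SE 0.137, limma adjusted p = 0.000919). Both activators were lower in both mutant libraries than in either control. The activator gene e2f2 (ENSDARG00000079233) is not among the 10 genes and was added after its values were seen. Its values were 13.76 and 13.03 TPM in the controls and 2.97 and 3.37 TPM in the mutants (log2 change -1.79, SE 0.108, limma adjusted p = 5.91e-05).

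The canonical repressors did not move together. The gene e2f4 (ENSDARG00000101578), the E2F of the DREAM complex in mammals, went from 29.25 and 28.83 TPM in the controls to 8.19 and 10.88 TPM in the mutants, 3.05-fold lower in mean TPM (log2 change -1.52, SE 0.133, limma adjusted p = 0.000207). The gene e2f5 (ENSDARG00000038812), known in vertebrates for its part in the differentiation of multiciliated cells, was low throughout, at 2.61 and 2.51 TPM in the mutants and 2.23 and 2.14 TPM in the controls. The mutant values of e2f5 lay slightly above the controls, and the change of 0.16 did not pass (SE 0.118, 95% interval -0.13 to 0.45, limma adjusted p = 0.272). That interval leaves out the -1.52 of e2f4, but on this scale an equal fold change comes out smaller for a low gene such as e2f5. In mean TPM, which has no such shrinkage, e2f5 stood at 1.17 times its control level and e2f4 at 0.33 times. With 0.1 TPM added in place of 1 TPM, the changes were 0.22 for e2f5 and -1.61 for e2f4.

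The pocket-independent repressor gene e2f6 (ENSDARG00000008119) showed the smallest of the 5 falls, from 23.69 and 25.37 TPM in the controls to 15.36 and 15.76 TPM in the mutants (log2 change -0.62, SE 0.080, limma adjusted p = 0.000919). The atypical repressors differed from each other. The gene e2f8 (ENSDARG00000057323) had the largest fall of the 10 genes, from 17.02 and 14.70 TPM to 2.72 and 2.91 TPM, 5.63-fold lower in mean TPM (log2 change -2.14, SE 0.115, limma adjusted p = 3.98e-05). It ranked 174th among the falls of all 16172 tested genes. The gene e2f7 (ENSDARG00000008986), whose mammalian form is a p53 target as well as an E2F target, was at 9.46 and 10.16 TPM in the mutants and at 10.53 and 10.54 TPM in the controls. Its change of -0.09 did not pass (SE 0.092, 95% interval -0.32 to 0.13, limma adjusted p = 0.401), and its sign turned to 0.03 under median ratio scaling.

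**Figure D3:**
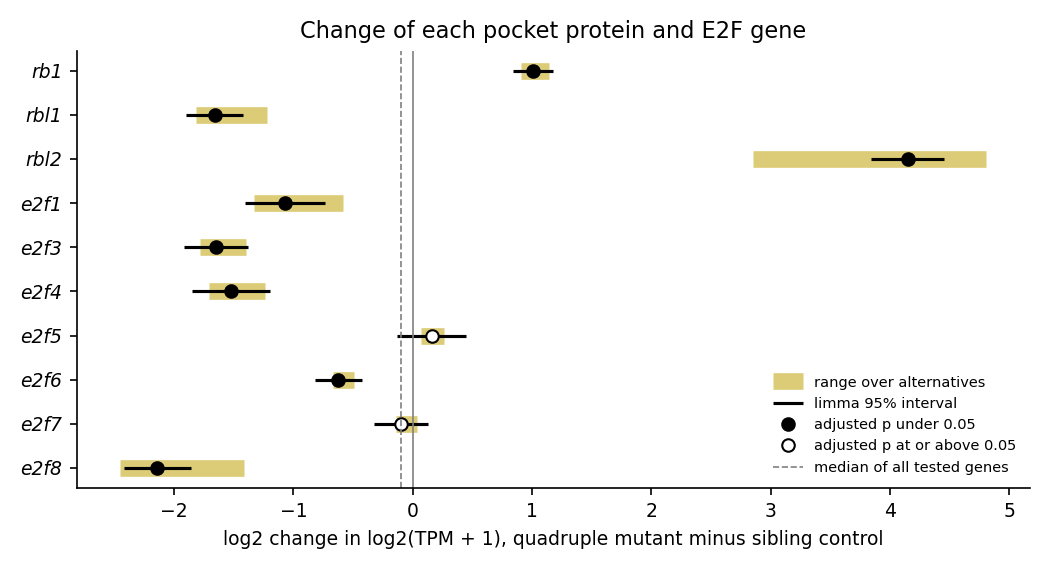
Change of each gene in log2(TPM + 1), quadruple mutant minus sibling control, with its limma 95% interval (black line), the range over the alternative settings (yellow band), and the median of all tested genes (dashed line). Filled points passed an adjusted p of 0.05 and open points did not; rb1 and rbl2 lie to the right of 0, rbl1 and 5 E2F genes to the left, and the bands of the 8 called genes stay on 1 side of 0.

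The changes of the activator and repressor genes overlapped. Averaged per library on the log2(TPM + 1) scale, e2f1 and e2f3 changed by -1.36 (SE 0.111), e2f4 and e2f5 by -0.68 (SE 0.084), and e2f7 and e2f8 by -1.12 (SE 0.064). The activators exceeded e2f4 and e2f5 by 0.07 and 0.12 in the mutants and by 0.73 and 0.82 in the controls, a change of -0.68 (SE 0.053; 2-sided exact permutation p = 0.333, the smallest possible). Against all 4 repressors e2f4, e2f5, e2f7 and e2f8, the change was -0.46 (SE 0.078; exact permutation p = 0.333, the smallest possible). The activator level thus fell further than the repressor level in these averages. However, the sign of the first value rested on e2f5, and the second value shrank without it. Of the 4 repressors, e2f5 (0.16) and e2f7 (-0.09) did not pass, whereas e2f4 (-1.52) and e2f8 (-2.14) did. The fall of e2f8 was larger than that of either activator, so the order depended on which repressors were averaged. Without e2f5, in a setting added after its values were seen, the activators against e2f4 alone gave 0.16, and against e2f4, e2f7 and e2f8 they gave -0.11. In other settings that were not planned, e2f2 added to the activators gave -0.82 and -0.60. With e2f6 added to the repressors the values were -0.70 and -0.52. In the planned settings with 5 and 0.1 TPM added, the first value was -0.41 and -0.83, and the second -0.33 and -0.54. Within the 4 repressors the changes ran from -2.14 for e2f8 to 0.16 for e2f5, and the activators e2f3 and e2f1 changed by -1.65 and -1.07. A range over fewer genes tends to be narrower, so these spans do not compare the classes.

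**Figure D4:**
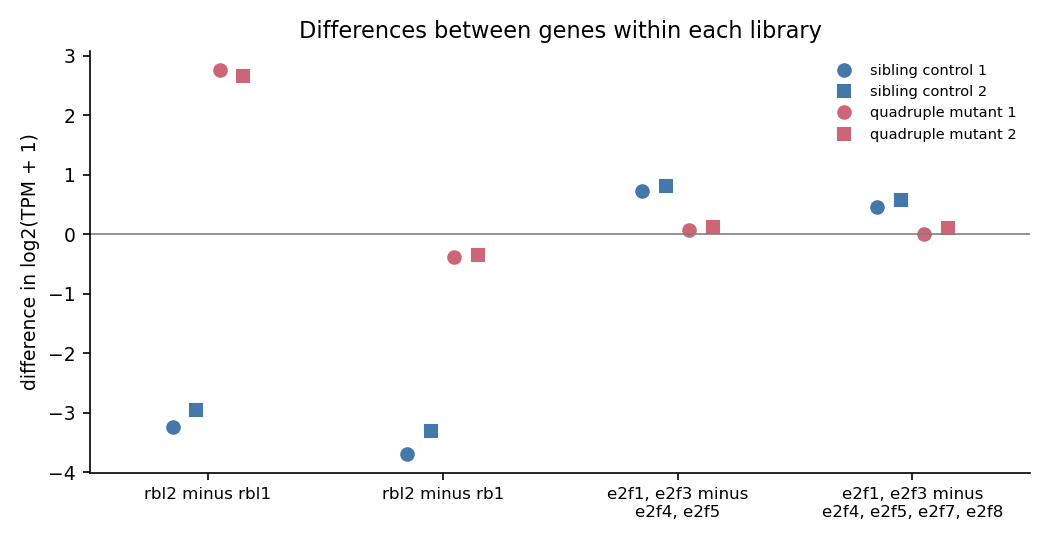
Difference in log2(TPM + 1) between genes or means of genes within each library (blue, sibling controls; red, quadruple mutants). The rbl2 minus rbl1 points switch from -3.23 and -2.95 to 2.77 and 2.66, and the activator minus repressor points move from 0.73 and 0.82 to 0.07 and 0.12 against e2f4 and e2f5.

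The summed TPM of the 7 E2F genes was 51.2 and 57.8 in the mutants and 129 and 126 in the controls. Pocket protein transcripts and E2F transcripts therefore stood in a ratio of 1.93 and 1.74 in the mutants against 0.364 and 0.366 in the controls. Within the E2F sum, e2f6 and e2f7 together with the low e2f5 took larger shares in the mutants: 28.6% ± 1.93 against 19.2% ± 1.23 for e2f6, 18.0% ± 0.631 against 8.25% ± 0.135 for e2f7, and 4.72% ± 0.533 against 1.71% ± 0.023 for e2f5 (SD, n = 2 per genotype). The share of e2f3 was 21.9% ± 1.15 against 31.0% ± 1.05, and that of e2f8 was 5.17% ± 0.195 against 12.4% ± 1.09. The share of e2f1 overlapped between genotypes, at 4.1% and 4.29% in the mutants and 4.17% and 5.12% in the controls.

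The order of levels differed between genotypes. In the controls e2f3 led, followed by e2f4, rb1, e2f6, rbl1, e2f8, e2f7, e2f1, e2f5 and rbl2. Of these neighbours, rb1 and e2f6 overlapped, since e2f6 reached 25.37 TPM in the control library in which rb1 was at 25.19 TPM, and the other neighbours did not overlap. In the mutants rb1 led, followed by rbl2, e2f6, e2f3, e2f7, e2f4, rbl1, e2f8, e2f5 and e2f1. There e2f4 overlapped with both e2f7 and e2f3, at 8.19 and 10.88 TPM, whereas the other neighbours did not overlap. The gene rbl2 was thus the 10th of the 10 genes in both controls and the 2nd in both mutants.

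The mutant libraries differed slightly from each other. Of the 10 genes, 9 were higher in mutant library 2 than in mutant library 1, as were 57.8% of tested genes. The median gap in log2(TPM + 1) was 0.08 over all 10 and 0.04 over all tested genes. The gap was widest for e2f4 (0.37) and e2f3 (0.26), and e2f5 was the exception (-0.04). In the controls, 5 of the 10 genes were higher in library 2, as were 45.3% of tested genes.

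In what follows, counts of a list are set beside the 28.0% higher and 37.7% lower of all tested genes and the median change of -0.10. All 3 tested genes of DP proteins, the dimerization partners of E2F1 to E2F6, fell (median -0.98): tfdp2 from 55.29 and 56.54 TPM to 16.99 and 19.60 TPM (log2 change -1.56, SE 0.087), and both copies of tfdp1 by 0.98 (ENSDARG00000016304) and 0.74 (ENSDARG00000019293). Of 11 genes of the MuvB core, the Myb factors, FoxM1 and the DREAM kinase Dyrk1a, 7 fell, 1 rose and 3 did not pass (median -0.73). Among the falls, mybl1 was under 1 TPM in both mutants and entered the test only through the controls, at 1.19 and 1.37 TPM. The MuvB subunit and histone chaperone gene rbbp4 went from 210.65 and 204.24 TPM to 66.45 and 82.39 TPM (-1.47, SE 0.104). The G2/M activator genes mybl2 (ENSDARG00000032264; -2.17, SE 0.089) and foxm1 (-1.95, SE 0.140) fell, and so did lin54, the DNA-binding subunit of MuvB (-0.76, SE 0.093).

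The exception in this list was 1 copy of dyrk1a, whose product in human cells phosphorylates LIN52 to assemble DREAM. It went from 9.67 and 11.12 TPM to 13.74 and 13.80 TPM (ENSDARG00000023814; 0.38, SE 0.10, limma adjusted p = 0.017), and without control replicate 1 it did not pass (0.29, adjusted p = 0.124). The MuvB genes lin37 (0.09) and lin52 (-0.72) and the other dyrk1a (ENSDARG00000063570; 0.23) did not pass. For lin52 the mutant libraries were far apart, at 12.08 and 26.49 TPM, and without mutant replicate 2 it passed (-1.26, adjusted p = 0.00259), as did the other dyrk1a (0.40, adjusted p = 0.0211). Under median ratio scaling lin37 passed as higher (0.23, adjusted p = 0.0225).

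Upstream of the pocket proteins, 9 of 11 tested genes of their kinases and cyclins fell, 1 rose and 1 did not pass (median -0.87). The S phase cyclin genes ccne2, from 37.66 and 40.03 TPM to 5.97 and 7.0 TPM (-2.42, SE 0.10), and ccna2 (-2.22, SE 0.110) fell further than the G1 cyclin genes ccnd1 (-0.76, SE 0.058) and ccnd2 (ENSDARG00000051748; -0.76, SE 0.072), by their values alone. The riser was cdk7, the kinase that activates other cyclin-dependent kinases, from 25.40 and 23.44 TPM to 34.10 and 43.53 TPM (0.64, SE 0.124, limma adjusted p = 0.0051). The second ccnd2 (ENSDARG00000070408; -0.38) did not pass, except without mutant replicate 1 (-0.56, adjusted p = 0.0285), and ccnd3 and ccna1 stayed under 1 TPM in every library and were not tested. Of 8 genes of kinase inhibitors, 5 rose, 2 fell and 1 did not pass (median 0.70). The Cdk4 and Cdk6 inhibitor gene cdkn2a/b was at 0.68 and 0.30 TPM in the controls and rose to 207.62 and 191.25 TPM (7.08, SE 0.137); it entered the test only through the mutants and was not tested without either mutant library. The p27 gene cdkn1b (ENSDARG00000029018; 3.26, SE 0.070) and cdkn1a (2.54, SE 0.128) rose, the latter in embryos labelled p21-/- in both genotypes. The falls were those of cdkn1cb (-1.67, SE 0.107) and cdkn2d (-1.11), the latter at no more than 1.81 TPM in any library, entered only through the controls and not tested without either, and cdkn2c (0.02) did not pass.

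Among genes of chromatin proteins, the list of corepressors and Rb-binding proteins had a median change nearer to that of all genes. Of 14 tested genes of corepressors and Rb-binding proteins, 7 fell, 1 rose and 6 did not pass (median -0.33). Among the falls, the low copy of suv39h1 (ENSDARG00000026799) entered the test only through the controls, at 1.57 and 1.46 TPM. The histone H3 lysine methyltransferase gene suv39h1 (ENSDARG00000055753) fell from 39.82 and 43.62 TPM to 6.87 and 8.92 TPM (-2.27, SE 0.128), and hdac1, the histone deacetylase gene, from 560.58 and 549.25 TPM to 383.18 and 392.21 TPM (-0.52, SE 0.046). The genes rbbp5 (-0.72, SE 0.068) and rbbp8 (-1.81, SE 0.233) fell as well, and 1 copy of the scaffold gene sin3a rose (ENSDARG00000059812; 0.48, SE 0.077). Of 11 genes of E2F6 partners and Polycomb proteins, 8 fell, 2 rose and 1 did not pass (median -0.77). Among the falls, cbx3b (-0.44) did not pass under median ratio scaling (-0.31, limma adjusted p = 0.077). The Polycomb genes eed (-1.87, SE 0.082) and ezh2 (-0.96, SE 0.093) and the heterochromatin protein gene cbx3 (ENSDARG00000003860; -1.47, SE 0.131) fell. The risers were yaf2, which reached 102.19 and 112.71 TPM from a control level of 34.76 and 31.57 TPM (1.67, SE 0.081), and the Polycomb ubiquitin ligase gene rnf2 (0.47, SE 0.054), while max (-0.09) did not pass.

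Of 11 genes, those of ubiquitin ligases, their regulators and the Mdm proteins together with spdya, 7 fell, 2 rose and 2 did not pass (median -0.71). The genes uhrf1 (-3.16, SE 0.116) and skp2 (-2.04, SE 0.098), the latter encoding the ligase subunit that degrades p27 and p130 in mammals, fell. The risers were mdm2, itself mutated in the quadruple mutants so that its TPM counts mutant transcripts, and fzr1b. The gene fzr1b, an activator of the anaphase-promoting complex in G1, went from 2.68 and 3.12 TPM to 15.22 and 13.13 TPM (1.96, SE 0.123). The other activator copy fzr1 (-0.08) and spdya (-0.22) did not pass.

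Textbook targets of E2F and DREAM were lower almost throughout. Of 53 tested G1/S targets other than the 10 genes, 51 fell, 0 rose and 2 did not pass (median -2.32). The replicative helicase gene mcm7 fell from 548.89 and 544.03 TPM to 69.75 and 79.28 TPM (-2.86, SE 0.072), the licensing gene cdc6 from 38.81 and 42.04 TPM to 6.21 and 6.78 TPM (-2.47, SE 0.090), and rpa3, a subunit of the single-strand binding complex, by 1.96 (SE 0.074). With uhrf1, these had the lowest p-values of the list. The 2 that did not pass were low copies, rrm2 (ENSDARG00000020711; -0.65, and -1.09 with an adjusted p of 0.0411 without mutant replicate 1) and mcm6 (ENSDARG00000033231; -0.13). The members rbl1, e2f1 and e2f8, which belong to the same textbook list, fell by 1.66, 1.07 and 2.14, and e2f7, also in it, did not pass.

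Of 47 G2/M targets, 45 fell and 2 rose (median -1.65). The spindle genes tpx2 (-2.01, SE 0.056), tacc3 (-1.80, SE 0.067) and kif11 (-1.68, SE 0.069) fell, the first from 157.49 and 156.64 TPM to 37.96 and 38.77 TPM. The risers were the cytokinesis gene ect2, at 181.01 and 170.95 TPM in the mutants and 12.38 and 12.73 TPM in the controls (3.71, SE 0.066), and the phosphatase gene cdc25d, at 8.09 and 8.62 TPM and at 0.07 and 0.24 TPM (3.02, SE 0.134). With control levels under 1 TPM, cdc25d could enter the test only because it was high in the mutants, and it was not tested without either mutant library. The lists overlap, with 9 genes in more than 1 of them, so that their counts are not separate evidence.

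**Figure D5:**
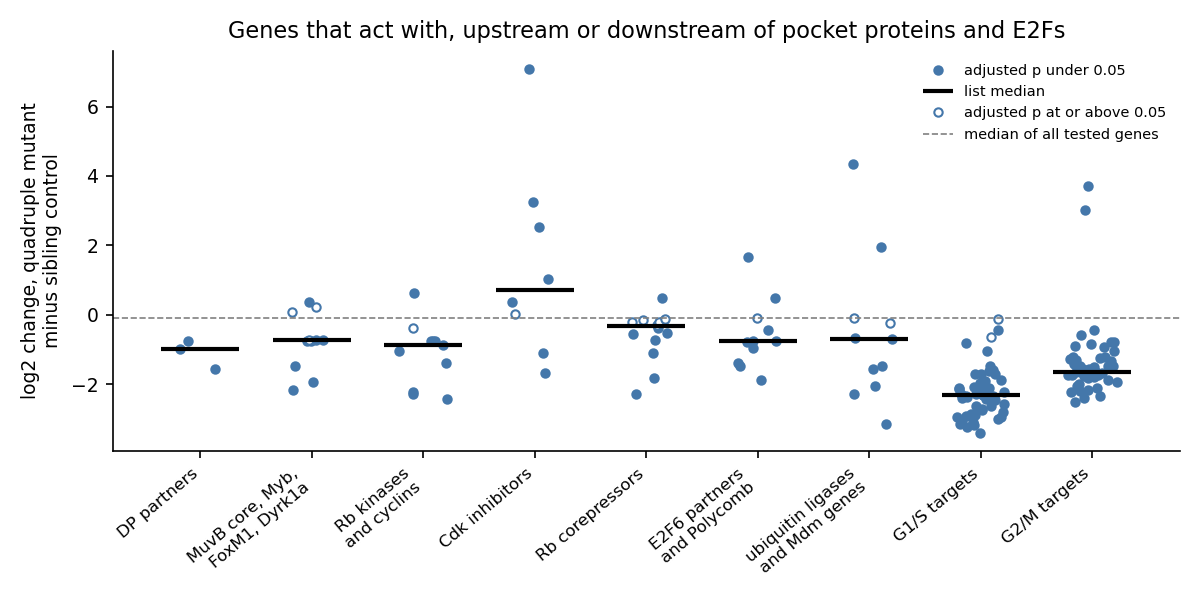
Change in log2(TPM + 1), quadruple mutant minus sibling control, of each tested gene in 9 lists of genes that act with, upstream or downstream of pocket proteins and E2Fs (1 point per gene, the 10 genes left out), with the list median (bar) and the median of all tested genes (dashed line). Filled points passed an adjusted p of 0.05; the medians lie at -2.32 for G1/S targets, -1.65 for G2/M targets and 0.70 for kinase inhibitors.

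By a fixed measure, the Euclidean distance between profiles of log2(TPM + 1) over the 4 libraries, each centred on the control mean, the genes most like rbl2 among 13366 candidates were scn3b (distance 0.083), pkd2l1 (0.121), tac1 (0.134), zgc:64022 (0.202) and ulk2 (0.203). Their log2 changes ran from 4.05 for ulk2 to 4.21 for zgc:64022. With 0.75 and 0.95 TPM in the controls, pkd2l1 entered the test only through the mutants, and the controls of scn3b were at 0.89 and 1.23 TPM. The genes most like rbl1 were ebf2 (0.042), the mitotic genes kif11 (0.044) and ttk (0.051), ppm1g (0.052) and si:dkeyp-110a12.4 (0.056), with log2 changes from -1.69 for ttk to -1.63 for ppm1g. With 2 genotypes, this measure ranks mainly the size of the change.

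Transcript levels of tissue markers also differed between genotypes. Whole embryos hold many cell types, and in such bulk samples fewer cells of a type and less RNA per cell cannot be told apart. Of 18 neural progenitor markers, 15 fell and 1 rose, and their summed level was 916 and 914 TPM in the controls and 293 and 356 TPM in the mutants. Of 12 tested neuron markers 10 fell and 1 rose (sums of 112 to 127 TPM in mutants and 335 to 344 TPM in controls), and of 11 muscle markers 8 fell and 1 rose (1419 to 1519 TPM against 1933 to 1974 TPM). Where a marker symbol matched only without its copy letter, all copies were counted. In the neuron sums, 1 copy of stmn1 (ENSDARG00000004169) stood at 9.31 and 15.78 TPM in mutants and at 100.55 and 98.19 TPM in controls. Of 9 epidermal markers 7 rose and 1 fell (12798 to 13320 TPM against 9839 to 9995 TPM). Of 9 markers of notochord and hatching gland 2 rose and 0 fell (3819 to 3873 TPM against 2483 to 2531 TPM), and of 9 of blood and endothelium 3 rose and 3 fell (291 to 310 TPM against 351 to 362 TPM). The 2 risers of the notochord and hatching gland list were both hatching enzyme genes, and its other 7 genes did not pass. They were he1.1 (1591 and 1654 TPM in controls, 2632 and 2699 TPM in mutants) and he1.2 (468 and 454 TPM, 757 and 753 TPM). Of 4 tested myeloid markers, 2 fell and 0 rose (11.3 to 14.1 TPM against 17.7 to 19.3 TPM), and marco was listed at 0 in every library. The gene spi1 was counted among the falls of both the myeloid list and the blood and endothelium list. The rising progenitor marker, a copy of fabp7 (ENSDARG00000034650), entered the test only through the mutants, and rx3, elavl4, snap25 (ENSDARG00000020609) and coro1a, which fell, entered only through the controls. Under median ratio scaling tbxta, col8a1a, smyhc1, the progenitor marker notch1 (ENSDARG00000052094; 0.33) and the epidermal marker krt5 (0.24) also passed as higher. With no filter, the rising fabp7 copy did not pass (0.59, limma adjusted p = 0.0584). The muscle riser, a copy of acta1 (ENSDARG00000036371), did not pass without the variance trend (0.22, limma adjusted p = 0.0715). By the sums above, markers of each of these tissues other than the myeloid lineage summed to over 100 TPM in both genotypes. The part of these marker differences in the changes of the pocket protein and E2F genes was not tested.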

How the data were processed

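Poly-A selected libraries of whole zebrafish embryos were sequenced as paired reads, per the labels' protocols. The authors deposited TPM per Ensembl gene identifier. Build GRCz11 and the tools RSEM 1.3.3, STAR 2.7.3a, DESeq2 1.42.1 and HTSeq 0.12.3 appear in the submitters' processing notes, which assign no tool to the TPM; annotation and strand setting are not given in the sources used. TPM keeps no depth, so counting error is unknown, no count model was used, and when abundant genes rise all other TPM values drop.

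Identifiers were named from a table of gene symbols, case ignored (28988 of 32057 had a symbol). Symbols of lists that found no match were tried without the zebrafish copy letter, and all copies then found were counted. Genes that reached 1 TPM in 2 or more libraries were tested on log2(TPM + 1) with limma 3.58.1 in R 4.3.3 (variance trend, Benjamini-Hochberg, threshold 0.05, no replicate block). Single values per library were compared by 2-sided exact permutation. On data simulated for this comparison over 16172 genes, limma found 82.0% of the 2-fold and 99.2% of the 4-fold changes, and 4.40% of its calls were false. The simulation changed only a small share of genes, none as low as rbl2 or e2f5 in the controls. Its spread was drawn from the limma fit itself. These rates therefore need not hold for the real comparison, in which 65.6% of genes passed. Named genes were the 10 genes, up to 4 members of each list with the lowest p, and members that moved against their list. Further genes were named for a limit or a comparison. The genes and lists were chosen with earlier results of these data known. The alternatives changed the pseudocount (0.1 or 5 TPM), the filter (none or 5 TPM), the scaling (median ratio or quantile), the variance trend (none) or the design (a replicate block, or each library left out). Python 3.11.15 with numpy 2.4.6, pandas 2.3.3 and matplotlib 3.10.9 was used. Sequences of the genes and proteins were not used here.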

Additional observations from a re-analysis of the deposited data

How the results depend on the processing

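Of 119 values computed for the 10 genes under the alternatives, 118 kept their direction and their side of the threshold; the exception was e2f7, which did not pass in any setting and stood at 0.034 instead of -0.09 under median ratio scaling. With a filter of 5 TPM, e2f5 was not tested. The highest adjusted p over all settings was 0.000207 for rbl2, 0.00138 for rb1, 0.000827 for rbl1, 0.00907 for e2f1 and 0.0127 for e2f6. Activators against e2f4 and e2f5 gave 0.16 in place of -0.68 when e2f5 was left out. The value was -0.82 with e2f2 added to the activators and -0.70 with e2f6 added to the repressors. Of 216 list counts, 208 stayed within 1.5 times. Under median ratio scaling 2 genes of the MuvB list were higher, and the count ran from 0 to 2 with 1 library left out. With the filter of 5 TPM 1 kinase inhibitor gene was lower, as also without either control, where the range was 1 to 2. With a mutant library left out 1 G2/M gene was higher in place of 2. Counts of all genes ran from 3510 to 3902 higher and 4169 to 6115 lower with 1 library left out. There, a genotype with a single library is given the spread of the other one. Deviations of same-numbered libraries were nearly unrelated (r = 0.05 across 16172 genes), so the numbers were not taken as pairs. With the replicate block, 4457 genes were higher and 6062 lower, no call among the 10 genes changed, and the change of rbl2 against rbl1 was 5.81 (exact sign-flip p = 0.5, the smallest that 2 pairs allow). Depth is unknown, which limits the low genes rbl2 (controls), e2f1 and e2f5 most.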
